A study of Homo sapiens with 12 samples.

Results

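The HIST-cluster histone genes are the multicopy genes for linker and core histones that carry HIST1 to HIST4 in their symbols. Here they are the entries of the deposited table in which at least 1 symbol starts with HIST1H, HIST2H, HIST3H or HIST4H. There were 55 such entries, naming 58 genes, among 78885 entries in all. No entry carried a HIST4 symbol. Other annotated HIST genes, such as HIST1H2AC, HIST1H2BC, HIST1H4K and HIST2H2BE, had no entry under their symbol, so the family is covered only in part. Of the 55, 29 had a mean of at least 10 normalised reads over the 12 libraries and were tested with 14225 named genes, 16 fell under that minimum, and 10 were at 0 in every library. The 29 are 2 H1, 7 H2A, 8 H2B, 5 H3 and 6 H4 entries and 1 entry that joins an H2A with an H3 gene.

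RNA was sequenced from TC-71, an established human Ewing sarcoma line, in 4 groups of 3 libraries. The first pair of groups received the vehicle DMSO or the small molecule YK-4-279 for 16 h, at a dose labelled as 2 mM. YK-4-279 was developed to block the contact between the fusion protein EWS-FLI1 and the RNA helicase DHX9. Cells of the other pair were transfected with a scrambled control or against DHX9 (siDHX9) and collected at 48 h. All groups are wild type apart from the knockdown, in 1 line, and the labels name siRNAs in one place and shRNAs in another. Each group has 3 replicates that the labels call biological, so p-values measure the spread between cultures of 1 line. Unless stated, that spread is pooled over the 4 groups.

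Totals ran from 38568983 to 65547726 reads per library, and HIST entries together took 0.0117 to 0.0323% of them, so many members rest on few reads. DHX9, which shares its entry with NPL, fell with siDHX9 (log2 −0.66, adjusted p = 4.54e-05), and lay at log2 −0.21 with YK-4-279 (adjusted p = 0.0567). All 9 matched entries for Ewing sarcoma markers were well above the minimum. Of 12 markers of blood, stromal, epithelial and endothelial cells, 5 had a mean under 10, among them PTPRC, CD3E and CD163 (CD3E at 0). Of the other 7, CD68 shares its entry with EIF4A1, which makes it uninformative. In limma, KRT18 rose with YK-4-279 (log2 0.52, adjusted p = 0.0175), while KRT8 and EPCAM lay at 0.44 and −0.21 (adjusted p = 0.20 and 0.88). Of the fibroblast markers, DCN (1.03, adjusted p = 0.00546) and COL1A1 (0.37, adjusted p = 0.0413) rose with siDHX9. PDGFRB went the other way, at −0.65, just over the 0.05 threshold (adjusted p = 0.0525). These changes stand beside the HIST rises given below, and their part in those was not tested. The summed Ewing markers ranged from 90210 to 93420 in DMSO and from 95060 to 99160 with YK-4-279. Scrambled libraries held 86630 to 90060 and those with siDHX9 90400 to 98440. In the same order the sum over the other cells, nearly all of it the CD68 entry, ran from 99190 to 100400, 107300 to 114700, 99880 to 106300 and 96870 to 118900.

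Histones package DNA: H2A, H2B, H3 and H4 form the nucleosome core, and H1 binds the linker. Most HIST genes are intronless and replication-dependent, which means that their messages are made in S phase and end in a conserved stem-loop, bound by SLBP, in place of a poly(A) tail. Some of them also give polyadenylated messages that read past the stem-loop, a form known from differentiated and non-dividing cells. No source used here says if these libraries were made by poly(A) selection or rRNA depletion, and a normalised count per entry does not separate both kinds of message. Since bulk RNA was measured, fewer cells in S phase and less histone RNA per S-phase cell cannot be told apart.

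The stem-loop is shown first, because its place in each annotated transcript sets how much sequence lies beyond the usual end. It was found in GENCODE release 29 transcripts of 16 of the 31 genes in the tested entries. Of 206570 transcripts of genes without a HIST symbol, 62 held it (0.03%), a share of transcripts rather than of genes. The stem-loop is 16 bases long, in capitals here with its flanks. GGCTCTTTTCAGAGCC occurred in 8 genes, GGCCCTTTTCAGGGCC in 3, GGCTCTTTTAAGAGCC and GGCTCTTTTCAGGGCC in 2 each, and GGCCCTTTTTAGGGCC in 1.
HIST1H2BD-202: ccaaaGGCTCTTTTAAGAGCCacgcatgtt
HIST3H2A-201: ataaaGGCTCTTTTCAGAGCCacctactat
HIST1H3H-201: ccaaaGGCTCTTTTCAGAGCCacccacatg
HIST1H2AG-201: ccaacGGCTCTTTTCAGGGCCacccacgtc
HIST2H2AA3-201: caaaaGGCTCTTTTCAGAGCCacccacgtt
HIST1H4B-201: ccaatGGCCCTTTTCAGGGCCgcccactcc
HIST1H4E-201: tcaaaGGCCCTTTTCAGGGCCgcccacagt
HIST1H4I-201: aaaaaGGCCCTTTTTAGGGCCcctaagctt
The transcript went on for 39 bases after the stem-loop in HIST1H2BD-202, for 35 in HIST2H2AA3-201 and for 86 in HIST1H4B-201. In HIST3H2A it went on for 390 bases, in HIST1H3H for 769, in HIST1H4E for 1022 and in HIST1H2AG for 1761. The other annotated form of HIST1H2BD, HIST1H2BD-201, holds no such stem-loop in its 789 bases. A gene without a match here, HIST1H2BK among them, may be annotated by its coding part only.

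**Figure D1:**
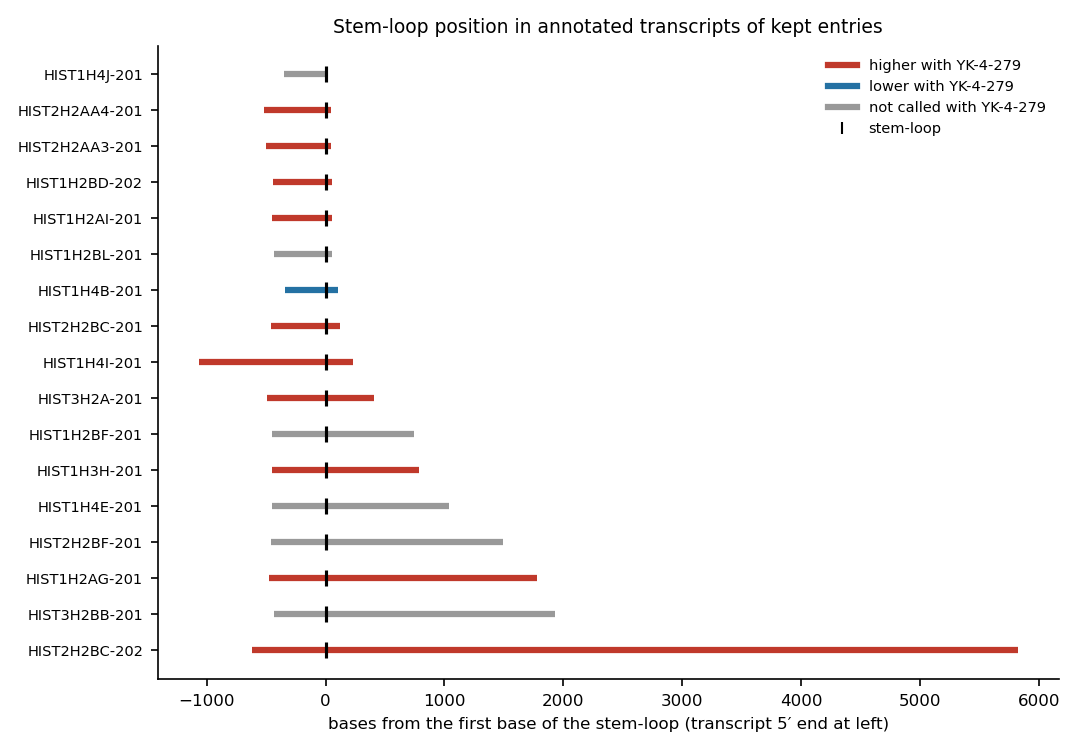
Position of the stem-loop in the 17 annotated transcripts of tested entries that hold it. Each bar is 1 transcript from its 5′ to its 3′ end in bases, aligned on the first base of the stem-loop (black tick) and coloured by the call of its entry with YK-4-279. Transcripts called higher are found both among those that end soon after the stem-loop (HIST2H2AA3-201, 35 bases) and among those that run on (HIST1H2AG-201, 1761 bases).

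With YK-4-279, 12 of the 29 entries were called at an adjusted p under 0.05 (limma, Benjamini-Hochberg over all genes), of which 10 were higher and 2 lower. Over all genes 13.8% were called, 7.33% higher and 6.49% lower, so 34.5% of the members were called higher beside 7.33% of all genes, and 6.9% lower beside 6.49%. The count of lower members depended on the fit: it was 7 when only the 6 libraries were fitted, 6 with DESeq2, and 0 without DMSO replicate 2, DMSO replicate 3 or YK-4-279 replicate 2. HIST1H2BD, HIST1H2BK and HIST3H2A, which encode core histones H2B and H2A, rose 3.47-fold, 2.48-fold and 2.11-fold. The median log2 change was 0.27 over the 29 entries and 0.02 over all genes. In 12 entries every YK-4-279 library lay above every DMSO library, and in 9 every one lay below. The same held for 23.2% and 20.4% of all genes.

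The calls differed in how firmly they stood. Here and below, fits that left out libraries of the other pair of groups were not checked for single entries of a comparison. In each of the other alternative fits, HIST1H2BD, HIST1H2BK, HIST3H2A and the joint entry of HIST1H2AI and HIST1H3H were called. The joint entry of HIST2H2AA3 and HIST2H2AA4 was called in each alternative that gave it an adjusted p, which DESeq2 did not. HIST1H1C lost its call only without DMSO replicates 2 and 3 together (adjusted p = 0.0736), an alternative added after seeing the data that leaves 1 control. The other 6 lost their call in that fit and in at least 1 other alternative, as given with each below. The rRNA entry took 7.9 to 9.98% of reads with YK-4-279 and 4.95 to 5.44% in DMSO, and its part in these results was not tested.

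**Figure D2:**
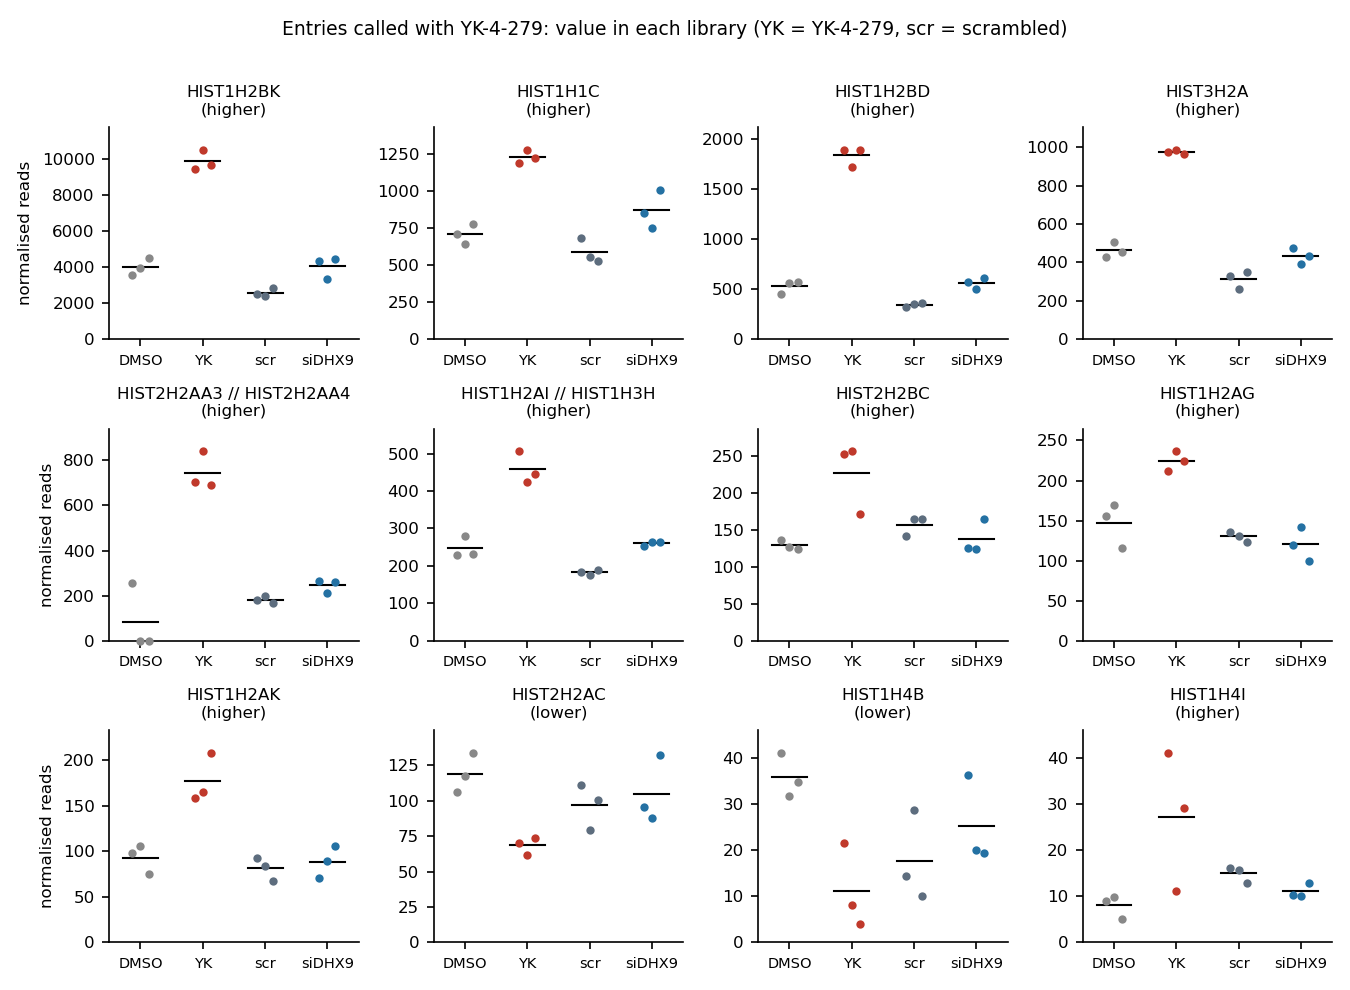
Normalised reads in each of the 12 libraries for the 12 entries called with YK-4-279, ordered by mean. Points are libraries, black lines are group means of 3 libraries, and every axis starts at 0. The YK-4-279 libraries lie above all DMSO libraries in the 10 panels marked higher. In the panel of HIST2H2AA3 // HIST2H2AA4, DMSO replicates 2 and 3 are at 0.

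Of the linker histones, HIST1H1C, which encodes H1.2 (chromosome 6, 26055781 to 26056701, hg19), held 712, 644 and 776 normalised reads in DMSO replicates 1 to 3 and 1191, 1277 and 1224 with YK-4-279. All treated libraries were above all controls, a rise of 1.73-fold (log2 0.79 ± 0.13 SE, adjusted p = 0.00133). HIST1H1E, which encodes H1.4, held 256, 238 and 221 in DMSO and 199, 106 and 151 with YK-4-279. Its treated libraries were all below the controls, but the change missed the threshold (log2 −0.69 ± 0.23 SE, adjusted p = 0.0628). Without YK-4-279 replicate 1 it passed, at log2 −0.91 and an adjusted p of 0.0353. Neither annotated transcript shares a run of 50 bases with another gene.

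Among the H2A genes, HIST3H2A (chromosome 1, 228644682 to 228645573, hg19) held 428, 508 and 452 in DMSO and 976, 986 and 965 with YK-4-279. The 3 treated libraries lay close together and far above the controls (log2 1.08 ± 0.13 SE, adjusted p = 0.00014). The joint entry of HIST1H2AI and HIST1H3H (chromosome 6, 27775899 to 27779078, hg19), an H2A and an H3 gene whose reads are summed in the table, rose from 229.8, 279 and 231 to 506, 425 and 444 (log2 0.89 ± 0.12 SE, adjusted p = 0.000466). Which of both genes gave the reads cannot be read from the joint value, and 62.3% of the 50-base runs of HIST1H2AI are shared with HIST1H2AJ.

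HIST1H2AK (chromosome 6, 27803287 to 27806153, hg19) rose from 97.7, 105 and 74.5 to 158, 165 and 208 (log2 0.93 ± 0.21 SE, adjusted p = 0.0101). Every run of 50 bases in its annotated transcript of 393 bases also occurs, on either strand, in transcripts of other genes. HIST1H2BN and HIST1H2AM are among them. The search did not tell copies of a gene apart from transcripts that overlap at the same place, so whether its reads are ambiguous is not known. The rest of its entry, which spans 2867 bases, was not compared. The call was lost without YK-4-279 replicate 3 (adjusted p = 0.0513). HIST1H2AG (chromosome 6, 27100817 to 27103070, hg19) rose from 156, 169.8 and 116 to 212, 236 and 225 (log2 0.62 ± 0.17 SE, adjusted p = 0.0303), with no overlap between groups. That call was lost without DMSO replicate 1 or 3 or any 1 of the YK-4-279 replicates, at adjusted p values up to 0.121, at log2 changes of 0.46 to 0.67.

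The joint entry of HIST2H2AA3 and HIST2H2AA4 (chromosome 1, 149822603 to 149823191, hg19), 2 copies of 1 H2A gene, held 255, 0 and 0 in DMSO and 706, 839.5 and 689 with YK-4-279. Both 0 values stand apart from the 10 other libraries, where the lowest was 166. A count of 0 allows up to 2.98 and 3.85 normalised reads in DMSO replicates 2 and 3 (3 reads, counting error only). The call (adjusted p = 0.00741) rests in size on those 2 libraries, and the fitted log2 change of 6.87 depends on the value added before the logarithm. Without both, with 1 control left that is assumed to vary like the other groups, the log2 change was 1.54 and the call remained (adjusted p = 0.00466). Against DMSO replicate 1 alone, the lowest YK-4-279 library was 2.7 times as high. Without this entry and HIST1H4J, which was at 0 in scrambled replicate 1, 11 members were called, 9 of them higher.

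HIST2H2AC, an H2A gene (chromosome 1, 149858473 to 149858961, hg19), fell from 106, 117 and 134 to 70.3, 61.3 and 73.5 (log2 −0.79 ± 0.20 SE, adjusted p = 0.0197). Its call was lost without DMSO replicate 2 or 3 or YK-4-279 replicate 1 or 2, at adjusted p values of 0.0502 to 0.083. An entry without a symbol, with more reads, overlaps it in the table, and reads of both may not have been told apart. HIST1H2AM and HIST1H2AH had lower values in all treated libraries without passing the test. HIST1H2AM held 78.5 to 118 in DMSO and 48.4 to 64.3 with YK-4-279 (log2 −0.77 ± 0.25 SE, adjusted p = 0.0538), and passed in 5 alternatives, edgeR and DESeq2 among them. Of its 50-base runs, 86.3% also occur in transcripts of other genes, HIST1H3J among them. Copies and transcripts overlapping at the same place were again not told apart. HIST1H2AH held 46.3 to 51.6 and 15.1 to 40.3 (log2 −1.003 ± 0.35 SE, adjusted p = 0.0709).

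The H2B genes included the largest rise among the calls that rest on no library at 0. HIST1H2BD (chromosome 6, 26158349 to 26171574, hg19) held 457, 565 and 570.1 in DMSO and 1893, 1725 and 1893 with YK-4-279, each treated library more than 3 times the mean of its controls. The group means were 531 ± 64.1 and 1837 ± 96.7 (SD, n = 3, log2 1.80 ± 0.11 SE, adjusted p = 1.28e-06). HIST1H2BK (chromosome 6, 27106073 to 27114637, hg19) took 44.4 to 60.2% of the normalised reads of all HIST entries in a library. It rose from 3557, 3922 and 4516 to 9432, 10484 and 9668 (log2 1.31 ± 0.12 SE, adjusted p = 1.45e-05). Its annotated transcript covers the coding part only, where 74.1% of 50-base runs are shared with other H2B genes, while its entry spans 8565 bases. Only 5.9% of the 50-base runs of HIST1H2BD are shared.

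HIST2H2BC, a transcribed H2B pseudogene by RefSeq, rose from 137, 127 and 125 to 253, 256 and 171 (log2 0.78 ± 0.18 SE, adjusted p = 0.011). YK-4-279 replicate 3 was closest to the controls, and the call was lost without replicate 1 (adjusted p = 0.0533) or 2 (0.062) of that group. The other H2B genes were not called. HIST3H2BB held 18 to 22.8 and 28.1 to 31.2 (log2 0.51 ± 0.28 SE, adjusted p = 0.251), with all treated libraries above the controls. HIST2H2BF held 43.7 to 75.3 and 19.1 to 43.2, all below the controls (log2 −0.995 ± 0.35 SE, adjusted p = 0.0774). For HIST1H2BF, HIST1H2BL and HIST1H2BO the groups overlapped, with log2 changes of −0.23, −0.39 and 0.40.

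No H3 entry passed the test with YK-4-279. HIST1H3D came closest, with 36.6, 88.4 and 100.2 in DMSO and 147, 229 and 115 with the drug (log2 1.18 ± 0.40 SE, adjusted p = 0.0636). Its groups did not overlap, and it passed with DESeq2 (adjusted p = 0.0238). Every run of 50 bases in its annotated transcript of 411 bases also occurs in a transcript of 1 other gene, which is not among the HIST symbols. Whether that transcript is a copy or overlaps HIST1H3D at the same place was not tested. Its entry spans 2540 bases, and the rest of it was not compared. HIST1H3A held 36.7 to 41.1 and 12.1 to 36.3, all lower with the drug (log2 −0.94 ± 0.34 SE, adjusted p = 0.0831). Of the alternatives checked, it passed only without YK-4-279 replicate 3 (adjusted p = 0.0202). HIST1H3B, HIST1H3J and HIST2H3D overlapped between groups, at log2 −0.52, 0.36 and 0.27, with SEs of 0.37 to 0.51. Changes of that size were not detectable at this depth.

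Of the H4 genes, most of which encode the same core protein, HIST1H4B (chromosome 6, 26027124 to 26027480, hg19) fell from 41, 31.8 and 34.7 to 21.6, 8.04 and 4.03 (log2 −1.86 ± 0.52 SE, adjusted p = 0.0308). It was called with YK-4-279 replicate 1 left out but lost its call without any 1 of the 5 other libraries (adjusted p up to 0.117). HIST1H4I rose from 8.95, 9.93 and 5.14 to 41.1, 11.1 and 29.2 (log2 1.51 ± 0.47 SE, adjusted p = 0.0461), and lost its call without any DMSO replicate and without YK-4-279 replicate 1 or 3 (adjusted p up to 0.176). The HIST1H4I entry lies inside that of HIST1H2BK, which holds a mean of 5116 normalised reads against 15.3. No source used here says if counting used the strand, so reads of both genes may not have been told apart.

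HIST1H4A held 20.9 to 27.8 in DMSO and 6.04 to 10.1 with YK-4-279, all lower (log2 −1.50 ± 0.50 SE, adjusted p = 0.0615). HIST1H4C held 69.3 to 97.3 and 36.3 to 67.4, also all lower (log2 −0.66 ± 0.25 SE, adjusted p = 0.0936). Neither passed the test, although HIST1H4A did with DESeq2 (adjusted p = 0.0367). HIST1H4E overlapped between groups, with 59.1 to 83.4 and 57.3 to 84.6 (log2 −0.05 ± 0.20 SE). HIST1H4J ranged from 0 to 131 over the 12 libraries and its log2 change had an SE of 1.28, and 81.2% of its 50-base runs are shared with HIST1H4K.

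**Figure D3:**
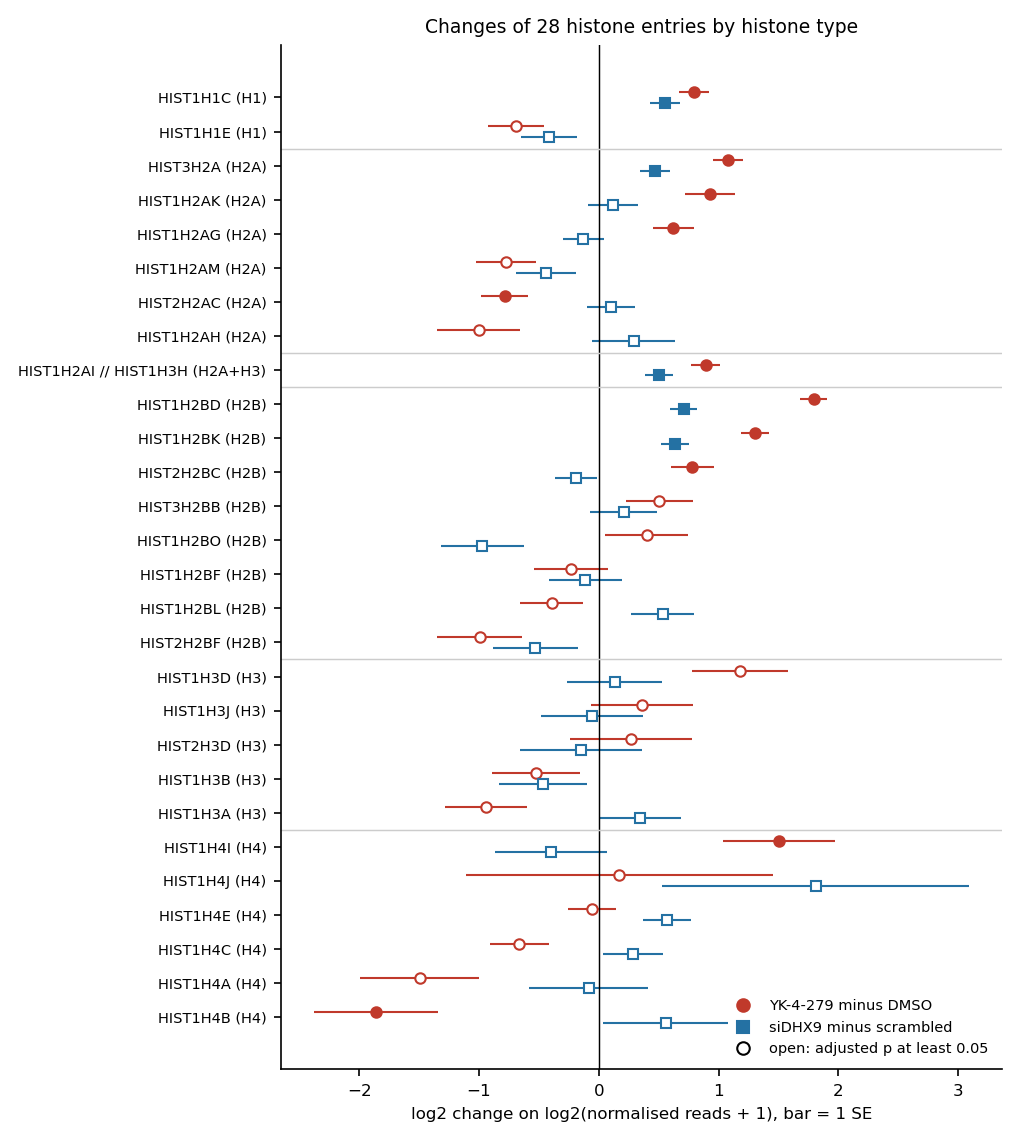
Log2 change with 1 SE of 28 tested entries, grouped by histone type, for YK-4-279 minus DMSO (circles) and siDHX9 minus scrambled (squares). Filled symbols are called at an adjusted p under 0.05. The entry HIST2H2AA3 // HIST2H2AA4 is left out because 2 of its DMSO libraries are at 0. HIST1H2BD at log2 1.80 is the highest called value and HIST1H4B at −1.86 the lowest.

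The span of an entry in the table, from its first to its last base with any introns, ran from 357 to 29684 bases with a median of 793. Of the 14 entries above that median, 9 were called higher and 0 lower with YK-4-279, with a median log2 change of 0.84. The 14 below it had 1 called higher, the joint HIST2H2AA3 and HIST2H2AA4 entry, and 2 lower, with a median of −0.59. HIST2H2BF, with the longest span, was at −0.995 and goes against this order. Spearman's rho between span and log2 change was 0.56 over the 29 entries with YK-4-279 and 0.06 with siDHX9. These entries share libraries, and the long ones also held more reads (rho 0.58 between span and mean), so this is a description only.

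**Figure D4:**
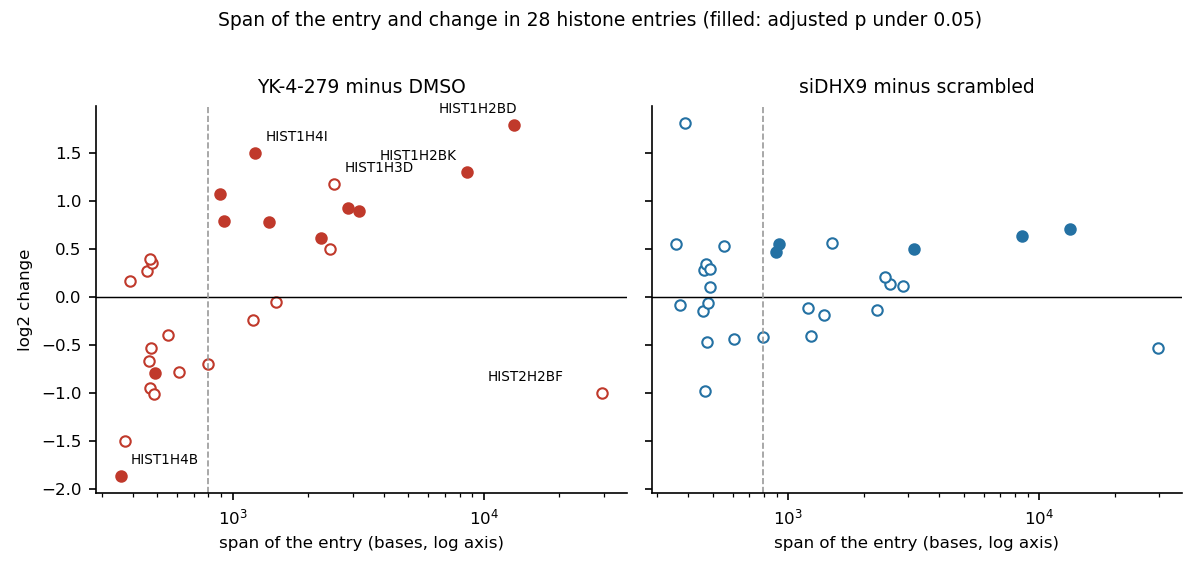
Span of the entry in bases (log axis) against its log2 change with YK-4-279 (left) and with siDHX9 (right) for 28 tested entries. Filled circles have an adjusted p under 0.05, and the dashed line marks the median span of 793 bases. In the left panel the filled circles left of it are all below 0 and those right of it all above 0, with HIST2H2AA3 // HIST2H2AA4 not drawn.

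With siDHX9, 5 entries were called, all higher, and 0 lower, or 17.2% of the members called higher beside 8.75% of all genes (7.97% were lower and 16.7% called in either direction). The 5 were HIST1H2BD, HIST1H2BK, HIST1H1C, the joint entry of HIST1H2AI and HIST1H3H, and HIST3H2A, and all 5 were also called higher with YK-4-279. They are 5 of the 29 tested entries, and 1.19% of all genes were called higher in both. Among called entries they are 5 of the 5 with siDHX9 and 5 of the 10 higher with the drug. Over all genes, 169 were called higher in both, out of 1244 higher with siDHX9 and 1042 higher with the drug. At an unadjusted p under 0.05 there were 7 entries. The median log2 change was 0.13, against −0.0024 over all genes, and ran from 0.0018 without siDHX9 replicate 3 to 0.35 without siDHX9 replicate 2. All siDHX9 libraries lay above all scrambled libraries in 9 entries (14.9% of all genes) and below them in 1 (14.4%).

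HIST1H2BD held 319, 354 and 357 in scrambled and 576, 501 and 612 in siDHX9 replicates 1 to 3 (log2 0.71 ± 0.11 SE, adjusted p = 0.00141). HIST1H2BK held 2489, 2407 and 2840.1 and 4304, 3332 and 4444 (log2 0.64 ± 0.12 SE, adjusted p = 0.00317). In both, siDHX9 replicate 2 was the lowest of its group and still above every control. HIST1H1C held 685, 555 and 531 and 852, 750.1 and 1005 (log2 0.56 ± 0.13 SE, adjusted p = 0.0108), and scrambled replicate 1 came nearest to the treated libraries. The joint HIST1H2AI and HIST1H3H entry held 185, 176 and 189.5 and 253, 264 and 263 (log2 0.50 ± 0.12 SE, adjusted p = 0.0144). HIST3H2A held 328, 261 and 351 and 476, 391 and 433 (log2 0.47 ± 0.13 SE, adjusted p = 0.0226).

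Of these 5 calls, 4 passed without any 1 library of the comparison. HIST3H2A lost its call without scrambled replicate 2 (adjusted p = 0.0774), siDHX9 replicate 1 (0.0858) or siDHX9 replicate 3 (0.0571). In a fit of the 6 scrambled and siDHX9 libraries alone, 2 entries were called, HIST1H2BD and HIST1H2BK. Without scrambled replicates 1 and 2 together, chosen after seeing the data, 1 was called, HIST1H1C. This leaves 1 scrambled library, which is assumed to vary like the other groups, and it is the one alternative that ended the calls of HIST1H2BD (adjusted p = 0.0534) and HIST1H2BK (0.137). The rRNA entry took 1.76 to 3.59% of reads after the knockdown and 3.52 to 5.2% in its controls. These ranges overlapped, and the part of this entry in these results was not tested.

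Outside these 5 the siDHX9 values were nearer to 0 or less precise. HIST1H4E held 73.9, 63.8 and 71.8 in scrambled replicates and 97.2, 102 and 112 after the knockdown, all higher (log2 0.57 ± 0.20 SE, adjusted p = 0.0669). HIST1H2BO held 31.6 to 37.9 and 9.73 to 24.8, all lower (log2 −0.97 ± 0.35 SE, adjusted p = 0.0689). Of the alternatives checked, it passed only without siDHX9 replicate 2 (adjusted p = 0.0478). HIST1H2BL, HIST1H3A and the joint HIST2H2AA3 and HIST2H2AA4 entry were higher in all siDHX9 libraries, at log2 0.53, 0.34 and 0.43, without passing. The last held 181, 201 and 166 in scrambled and 265, 214 and 259 in siDHX9 libraries, with no value at 0. For HIST1H2AG, HIST1H2AK and HIST2H2BC, which rose with the drug, the siDHX9 and scrambled libraries overlapped (log2 −0.13, 0.12 and −0.19). The remaining 16 tested entries were also not called, with log2 changes from −0.53 (HIST2H2BF) to 1.81 (HIST1H4J).

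The drug effect was set against the knockdown effect by the difference of both, each against its own control. In 4 entries the drug effect was larger, and in 0 smaller, against 9.69% of all genes called in either direction (4.4% higher, 5.29% lower). HIST1H2BD differed by log2 1.09 ± 0.16 SE (adjusted p = 0.00138) and was called in every alternative fit run. HIST1H2BK differed by 0.67 ± 0.16 (adjusted p = 0.0213), HIST2H2BC by 0.97 ± 0.25 (adjusted p = 0.0271) and HIST3H2A by 0.61 ± 0.18 (adjusted p = 0.046). HIST1H2BK lost that call without DMSO replicate 1 or 2 or YK-4-279 replicate 2, at adjusted p values of 0.0546 to 0.0558. HIST2H2BC lost it without DMSO replicate 2 or 3, YK-4-279 replicate 1 or 2, scrambled replicate 2 or siDHX9 replicate 1 (0.0527 to 0.0747), and HIST3H2A without 11 of the 12 libraries (up to 0.106), the exception being scrambled replicate 2. The number called ran from 1 without DMSO replicate 2 to 6 without siDHX9 replicate 2, and the count was 2 without DMSO replicate 3, YK-4-279 replicate 2 or siDHX9 replicate 1.

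For HIST1H1C the difference was log2 0.24 ± 0.18 SE (adjusted p = 0.426), and for the joint HIST1H2AI and HIST1H3H entry 0.39 ± 0.17 (adjusted p = 0.162), so neither passed. HIST1H4B had the most negative difference, −2.42 ± 0.73, just over the threshold (adjusted p = 0.0529). It passed in 6 alternatives, among them DESeq2 (adjusted p = 0.0278) and the fits without YK-4-279 replicate 1, scrambled replicate 2 or siDHX9 replicate 2. Treatment and collection times differed between both pairs of groups, 16 h and 48 h, which cannot be told apart from the kind of treatment.

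The start regions are shown for the genes that led the changes, with HIST1H1E beside HIST1H1C as a linker gene that was not called. Windows run from 250 bases before to 50 after the RefSeq start on GRCh38.p14, and cover 26 of the genes in the tested entries. Capitals mark, on either strand, the octamer ATTTGCAT, the CCAAT box and the TATAAA box, which can overlap. The octamer is the site of OCT1, known for S-phase activation of H2B genes.
HIST1H2BD (RefSeq H2BC5, chr6:26157871-26158170, plus strand): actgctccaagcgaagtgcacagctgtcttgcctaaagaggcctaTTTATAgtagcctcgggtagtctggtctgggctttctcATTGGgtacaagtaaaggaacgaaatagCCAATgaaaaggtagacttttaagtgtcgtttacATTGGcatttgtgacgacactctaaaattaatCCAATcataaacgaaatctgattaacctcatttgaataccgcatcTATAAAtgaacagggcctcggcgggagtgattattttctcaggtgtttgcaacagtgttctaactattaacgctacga
HIST1H2BK (RefSeq H2BC12, chr6:27146809-27147108, minus strand): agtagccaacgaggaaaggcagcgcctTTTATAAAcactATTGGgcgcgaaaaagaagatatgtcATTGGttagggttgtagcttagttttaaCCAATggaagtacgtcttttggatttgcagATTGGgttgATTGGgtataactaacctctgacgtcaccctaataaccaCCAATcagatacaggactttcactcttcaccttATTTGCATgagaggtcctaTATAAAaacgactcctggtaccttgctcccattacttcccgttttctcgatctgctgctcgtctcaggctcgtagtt
HIST3H2A (RefSeq H2AC25, chr1:228457824-228458123, minus strand): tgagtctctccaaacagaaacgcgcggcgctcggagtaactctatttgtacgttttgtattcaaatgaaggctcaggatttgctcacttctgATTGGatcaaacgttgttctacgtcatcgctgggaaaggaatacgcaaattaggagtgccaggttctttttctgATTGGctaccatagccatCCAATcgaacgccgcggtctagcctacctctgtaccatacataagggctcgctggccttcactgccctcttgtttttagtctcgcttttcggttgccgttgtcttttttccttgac
HIST1H1C (RefSeq H1-2, chr6:26056421-26056720, minus strand): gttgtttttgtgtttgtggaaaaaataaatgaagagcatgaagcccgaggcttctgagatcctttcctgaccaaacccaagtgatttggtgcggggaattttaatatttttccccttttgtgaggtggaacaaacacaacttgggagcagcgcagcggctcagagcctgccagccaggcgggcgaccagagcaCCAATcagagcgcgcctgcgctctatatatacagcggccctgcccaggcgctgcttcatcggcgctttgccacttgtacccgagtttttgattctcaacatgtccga
HIST1H1E (RefSeq H1-4, chr6:26156079-26156378, plus strand): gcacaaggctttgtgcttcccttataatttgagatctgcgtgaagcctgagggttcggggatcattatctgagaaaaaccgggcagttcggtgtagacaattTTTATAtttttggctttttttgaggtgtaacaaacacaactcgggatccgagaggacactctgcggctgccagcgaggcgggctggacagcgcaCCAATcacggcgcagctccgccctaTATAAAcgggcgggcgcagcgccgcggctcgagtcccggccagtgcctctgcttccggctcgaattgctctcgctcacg
The octamer was in 30.8% of the 26 windows and in 1.8% of all 27305 RefSeq windows of that length, CCAAT in 88.5% and 35.7%, and TATAAA in 65.4% and 12%. It was in 57.1% of the 7 H2B windows and in 0 of the H1 and H4 windows. Of the 11 windows of entries called higher with YK-4-279, 2 held the octamer, HIST1H2BK and HIST1H2AG, and 11 held CCAAT. Of the 13 windows of entries not called, 5 held the octamer and 11 held CCAAT. HIST1H2BD, with the largest of these rises, has CCAAT at 4 positions and no octamer with these exact letters.

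Several tested members with a RefSeq window start head to head on opposite strands. Genes without a window, such as HIST1H2AH next to HIST1H2BK, were not searched for pairs. HIST3H2A and HIST3H2BB start 230 bases apart and had log2 changes of 1.08 and 0.51 with YK-4-279. HIST1H3D and HIST1H2BF start 223 bases apart, with 1.18 and −0.23. HIST1H2BL and HIST1H2AI start 244 bases apart, with −0.39 for HIST1H2BL and 0.89 for the entry that holds HIST1H2AI. HIST1H2AM and HIST1H2BO start 240 bases apart, with −0.77 and 0.40. In the last 3 pairs the values of both neighbours had opposite signs.

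Related genes were read from 5 lists. Their counts are to be read beside the shares of all genes called, 7.33% higher and 6.49% lower with YK-4-279 and 8.75% and 7.97% with siDHX9. Of 24 genes of S phase and DNA replication, the phase in which most HIST messages are made, 18 fell and 0 rose with YK-4-279 (median log2 −0.48), and 2 rose and 2 fell with siDHX9. CDC45, a part of the replicative helicase, fell from a range of 7869 to 8029 over the libraries to one of 4297 to 4485 (log2 −0.85 ± 0.07 SE, adjusted p = 8.28e-06). RRM2, a subunit of ribonucleotide reductase, fell from a range of 39230 to 40240 over the libraries to one of 23350 to 24290 (log2 −0.74 ± 0.07 SE, adjusted p = 2.32e-05). GINS1 and MCM4 were the next by adjusted p (log2 −0.93 and −0.62), and MCM2 and MCM7, at −0.10 and −0.03, were not called. With siDHX9, PCNA (−0.49) and RRM1 (−0.24) fell and CDC6 (0.36) and FEN1 (0.33) rose, while RRM2 and MCM7 were not called.

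Of 13 measured histone variant genes outside the HIST clusters, most of which give polyadenylated messages, 0 rose and 2 fell with YK-4-279 beside 13.8% of all genes called in either direction. H2AFZ, the variant H2A.Z, fell from a range of 71870 to 75150 over the libraries to one of 60980 to 62010 (log2 −0.25 ± 0.07 SE, adjusted p = 0.031). H3F3A, a gene for H3.3, fell from a range of 41720 to 43000 over the libraries to one of 30160 to 31430 (log2 −0.45 ± 0.08 SE, adjusted p = 0.00193), while H3F3B, a gene for the same protein, was not called (0.10), nor was H2AFX (−0.41). With siDHX9, H2AFZ fell (log2 −0.74 ± 0.07 SE, adjusted p = 1.74e-05) and the joint entry of H2AFB1 with F8A1 and copies rose (0.67). H3F3A (0.04) and H3F3B (−0.18) were not called.

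Of 27 genes of histone message synthesis and 3′ processing, 2 rose and 1 fell with YK-4-279 (13.8% of all genes were called), and 3 rose and 2 fell with siDHX9 (16.7%). CASP8AP2 (FLASH), which helps to start 3′ cleavage, fell from a range of 2123 to 2279 over the libraries to one of 1347 to 1419 (log2 −0.66 ± 0.12 SE, adjusted p = 0.00349). The scaffold SYMPK (0.37) and NELFE (0.30), a subunit of the negative elongation factor, rose, and SNRPB (0.03) and SNRPD3 (−0.03) were not called. With siDHX9, CPSF3, the endonuclease that cuts histone pre-mRNA, fell from a range of 7728 to 8139 over the libraries to one of 3816 to 4117 (log2 −1.01 ± 0.06 SE, adjusted p = 3.47e-07). NPAT, which activates HIST transcription, fell (log2 −0.54 ± 0.17 SE, adjusted p = 0.0469). CSTF2T (0.30) and LSM10 (0.39) rose, the latter with overlapping libraries. SLBP, named here after its values were seen, held 2878 to 3070 in DMSO and 2713 to 2777 with YK-4-279 (log2 −0.10 ± 0.09 SE, adjusted p = 0.524).

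Of 26 histone chaperones, 0 rose and 8 fell with YK-4-279 (6.49% of all genes fell), and 1 rose and 0 fell with siDHX9 (16.7% of all genes were called). HJURP, which loads the centromeric H3 variant, fell from a range of 5688 to 5782 over the libraries to one of 2954 to 3054 (log2 −0.94 ± 0.07 SE, adjusted p = 1.95e-06). CHAF1B, a subunit of the replication-coupled CAF-1 complex, fell (−0.73), as did TONSL (−0.45) and the entry of DNAJC9 with MRPS16 (−0.32). NPM1 and NAP1L1 were not called with YK-4-279 (−0.06 and −0.03), and with siDHX9 NAP1L1 rose (0.17) while NPM1 and NASP did not pass.

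Of 6 measured entries for other RNAs that end without a poly(A) tail, 2 rose and 2 fell with YK-4-279. RPPH1, the RNA of ribonuclease P, rose from a range of 21.6 to 69.3 over the libraries to one of 145 to 285 (log2 2.49 ± 0.48 SE, adjusted p = 0.00487), and RMRP, the RNA of the related ribonuclease MRP, from 35.8 to 95 up to 129 to 201 (log2 1.62 ± 0.38 SE, adjusted p = 0.0136). The entries of SCARNA13 with its host SNHG10 (−0.62) and of SNORA73B (−0.59) fell, and MALAT1 (−0.30) and the entry with RNU11 (0.60) were not called. With siDHX9 SCARNA13 rose (0.37) and MALAT1 fell (−0.59), and RPPH1 (0.52) and SNORA73B (0.20) were not called. The part of RNA selection in any of these values was not tested.

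**Figure D5:**
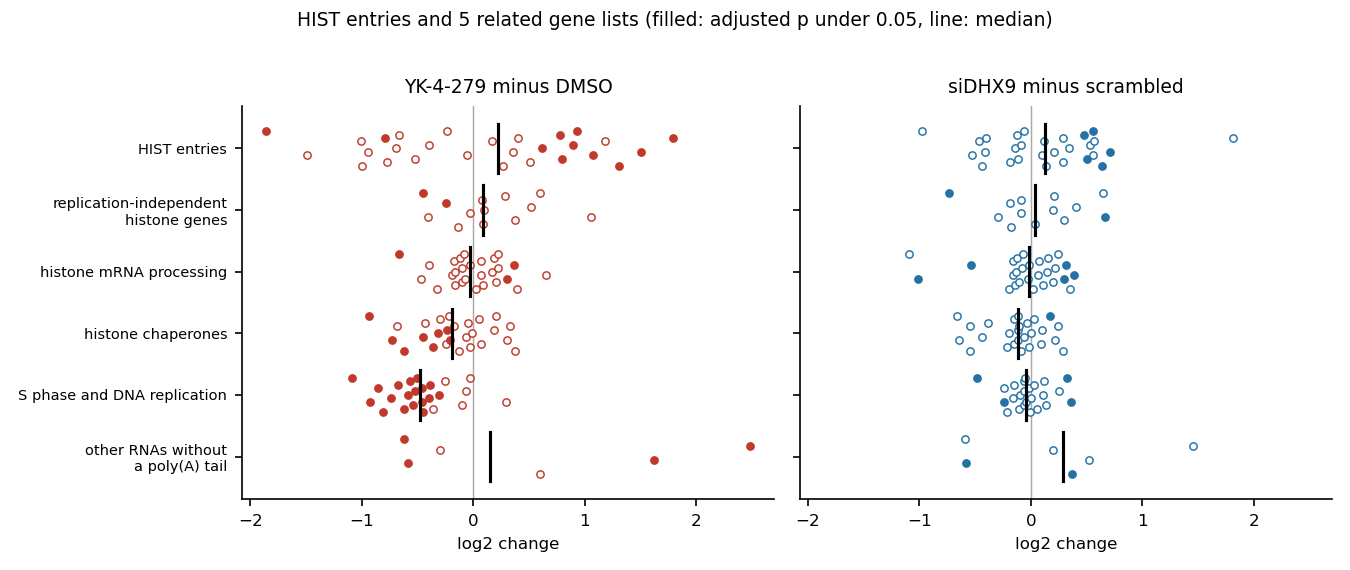
Log2 change of 28 HIST entries (HIST2H2AA3 // HIST2H2AA4 left out) and of the measured members of 5 related lists, with YK-4-279 (left) and siDHX9 (right). Each point is 1 entry, filled at an adjusted p under 0.05, and black lines are medians. With YK-4-279 the median of the 24 S phase and replication genes lies at −0.48, and filled HIST points lie on both sides of 0.

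Reads summed over all HIST entries were 7237 to 8083 in DMSO and 16393 to 17419 with YK-4-279, and they went from 5312 to 5748 among scrambled and from 6668 to 8568 among siDHX9 libraries, on the normalised scale. Without HIST1H2BK these sums were 3567 to 3693, 6909 to 6961, 2905 to 3117 and 3335 to 4124. In each pair the treated libraries were all above their controls, so the higher sums were not those of HIST1H2BK alone.

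Of the 26 entries not tested, the joint entry HIST2H3C // HIST2H3A came nearest to the minimum, then HIST1H1D, with means of 8.86 and 8.82, and HIST2H3D, at 13.8, was the lowest of those tested. The joint entry was at 0 in 10 libraries and held 33.8 in DMSO replicate 2 and 72.5 in YK-4-279 replicate 3. HIST1H1B, HIST1H1T, HIST1H2AB, HIST1H2AE, HIST1H2AJ, HIST1H2AL, HIST1H2BB, HIST1H2BE, HIST1H2BM, HIST2H2BA, HIST1H3C, HIST1H3F, HIST1H3G and HIST1H3I had means of 0.166 to 8.02. HIST1H2AA, HIST1H2APS1, HIST1H2BA, HIST1H2BG, HIST1H2BI, HIST1H4F, HIST1H4G, HIST1H4L, HIST2H3PS2 and HIST3H3 were at 0 in all 12 libraries. Those genes were not detectable at this depth, and near-identical copies may hold reads that could not be placed.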

How the data were processed

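RNA of 12 TC-71 libraries was sequenced, 3 in each of 4 groups, with groups taken from the sample labels. The authors deposited 1 table of normalised read counts per gene entry, a signal that is comparable between libraries but not per length. The submitters' processing notes name FastQC, Picard, SAMtools, STAR 2.4.0, DESeq and hg19. Whole reads could be recovered from the deposited signal in all 12 columns (tolerance 0.1 reads), and gave totals of 38568983 to 65547726 reads.

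Named entries with a mean of at least 10 (14225) were tested with limma 3.58.1 in R 4.3.3 on log2(value + 1), with 4 group means, a mean-variance trend and Benjamini-Hochberg adjustment over all of them. A gene was called at an adjusted p under 0.05. Fold changes are on the log2(value + 1) scale, which understates changes of low genes. Alternatives were edgeR 4.0.16 (quasi-likelihood) and DESeq2 1.42.0 on recovered reads, other added values, minimums and normalisation, a replicate block and leaving out libraries. The limma step was tested on simulated data. Every tested member was named. Of each related list, up to 4 called genes with the smallest adjusted p and up to 2 uncalled genes with the highest mean were named. The members and lists were chosen with earlier results of these data known. Coordinates of entries are hg19 as deposited. Sequences came from GENCODE release 29 and RefSeq on GRCh38, and no coordinate was moved between builds.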

Additional observations from a re-analysis of the deposited data

Results flagged for a closer look

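In 4 entries the change with YK-4-279 and the change with siDHX9 differed by a direct test of that difference in limma, out of the 29 tested and beside 9.69% of all genes. For HIST1H2BD the drug effect exceeded the knockdown effect by log2 1.09, and for HIST2H2BC by 0.97. HIST1H2BK and HIST3H2A differed by 0.67 and 0.61. Of these only HIST1H2BD passed in every alternative run. The drug was given for 16 h and the transfected cells were collected at 48 h, so time and agent cannot be told apart.

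An entry with no symbol, GSHG0002477, overlaps HIST2H2AC on chromosome 1 and was outside the named genes tested. Its normalised reads ranged from 131 to 170 in DMSO and from 774 to 829 with YK-4-279. Scrambled libraries held 82.8 to 140, and those with siDHX9 held 126 to 169, so the drug libraries stood far above all others. When the 17397 entries with and without symbols were tested together in limma, its log2 change with YK-4-279 was 2.36 (adjusted p = 9.81e-06), and that with siDHX9 was 0.45 (adjusted p = 0.113). HIST2H2AC itself fell with YK-4-279, by 0.79 on the log2 scale. No source used here says if counting used the strand.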

How the results depend on the processing

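Of 1608 values of single HIST entries under the alternatives, 1460 kept direction and side of the threshold, 70 lost a call, 35 gained one and 43 changed sign, with 0 calls among the last. With YK-4-279, the sign turned when 1 library was left out in HIST1H4E (−0.21 to 0.094) and HIST1H4J (−0.15 to 0.79). With siDHX9, the sign turned when 1 library was left out in HIST1H2AG (−0.25 to 0.0018), HIST1H2AK (−0.017 to 0.27), HIST1H2BF (−0.36 to 0.20), HIST1H3D (−0.19 to 0.50), HIST1H3J (−0.43 to 0.36), HIST1H4A (−0.52 to 0.41), HIST1H4J (−0.35 to 2.90), HIST2H2AC (−0.072 to 0.22), HIST2H3D (−0.62 to 0.30) and HIST3H2BB (−0.024 to 0.35). For the difference, the sign turned when 1 library was left out in HIST1H2BF (−0.43 to 0.13), HIST1H3B (−0.34 to 0.21), HIST1H3J (−0.00091 to 0.79), HIST1H4J (−2.73 to 0.53) and HIST2H3D (−0.031 to 0.88). With DESeq2 it turned in HIST1H3J for siDHX9 (0.028). With edgeR it turned in HIST1H3J for siDHX9 (0.012). Without DMSO replicates 2 and 3 together it turned in HIST1H3B for the difference (0.22). Without scrambled replicates 1 and 2 together it turned in HIST1H2AH for siDHX9 (−0.16), HIST1H3J for siDHX9 (0.33), HIST1H4A for siDHX9 (0.022), HIST1H4J for siDHX9 (−0.36), HIST1H2BF for the difference (0.20) and HIST1H4J for the difference (0.53).

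Members called numbered 12 with YK-4-279 (8 to 16 when 1 library was left out), 5 with siDHX9 (4 to 6) and 4 for the difference (1 to 6). For all genes the counts were 1965 (858 to 2795), 2378 (1244 to 4255) and 1379 (762 to 1883). Fitting only the 6 libraries of a comparison gave 4270 genes and 18 members (11 higher, 7 lower) with YK-4-279, and 492 genes and 2 members with siDHX9. The spread between replicates was unequal. Relative to counting error, as chi-square per degree of freedom, it was 6.88 to 18.15 in DMSO and 8.36 to 24.14 with YK-4-279. Scrambled libraries gave 30.26 to 40.94 and those with siDHX9 29.24 to 91.6. With DESeq2, 16 members were called with YK-4-279 (10 higher, 6 lower), and for the difference 7 members and 2097 genes. With a minimum mean of 50 the median log2 change of the members moved from 0.27 to 0.79 with YK-4-279 and from 0.13 to 0.36 with siDHX9, since this leaves 16 members. Leaving out 1 library gave siDHX9 medians of 0.0018 to 0.35.

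Pairs of control libraries were left out after seeing the data, so that 1 control remained and was assumed to vary like the other groups. Without scrambled replicates 1 and 2 there were 469 genes and 1 member with siDHX9, and 440 genes and 2 members for the difference. Without DMSO replicates 2 and 3 there were 154 genes and 5 members with YK-4-279, 162 genes and 1 member for the difference, and 1492 genes with siDHX9. The cause of the other shifts was not tested.

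With the replicate number as a block, 12 members were called with YK-4-279 (9 higher, 3 lower), 5 with siDHX9 and 4 for the difference. HIST1H4I lost its YK-4-279 call (adjusted p = 0.0634, limma) and HIST2H2BF gained one (0.0353). For the difference HIST3H2A lost its call (0.0678) and HIST1H4B gained one (0.0441). Same-numbered libraries correlated by 0.117, 0.055 and −0.009 in the drug pair and by 0.047, 0.06 and 0.078 in the knockdown pair. These small values neither show nor exclude a pairing. Each library correlated best with its own number in the knockdown pair but not in the drug pair, which is a hint from the data and not from the design. Floors at 0 cover counting error only.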
